A study of Mus musculus with 70 samples.

Results

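Upper layer identity factors are transcription factors whose genes mark, and help to specify, neurons of the superficial layers of the cerebral cortex. The 7 genes described here, Cux1, Cux2, Pou3f1, Pou3f2, Pou3f3, Rorb and Mef2c, were taken by symbol from the 23078 genes of the deposited expression table, and the rule used no measured value. Each matched 1 row. Bulk RNA-seq was performed on GFP-positive cells sorted from the dissected dorsal cerebral cortex of mice, giving 70 libraries in 23 groups of 1 cell type at 1 stage, with 2 to 4 libraries per group. Newborn neurons (NBN, 14 libraries) were sampled at 5 stages from embryonic day E15.5 to postnatal day 1 (PN), and basal progenitors (BP, 23 libraries) at 8 stages from E12.5 to PN, both from the Tbr2::GFP line. Neural stem cells (NSC, 33 libraries) were sampled at 10 stages from E10.5 to PN from the Hes5::GFP line. In every comparison of BP or NBN with NSC, cell type and reporter line therefore cannot be told apart. All groups carried the labels C57Bl/6, Wild-type and Female, so every library, whatever its cell type, came from animals with a GFP reporter transgene. The sources used here do not say how BP were told apart from NBN, which carry one and the same reporter. Nor do they say whether the libraries of a group came from separate animals. A p-value here therefore reflects the spread from library to library, and that spread may be technical.

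The cortex is built inside out. Radial glial stem cells divide at the ventricle, many of their daughters become basal progenitors, these divide into neurons, and deep layer neurons are born before upper layer neurons. CUX1 and CUX2 are cut-like homeodomain proteins that act in dendrite and synapse formation of upper layer neurons, and Cux2 is also made by progenitors. POU3F1 (Oct6), POU3F2 (Brn2) and POU3F3 (Brn1) are POU domain proteins with overlapping roles in the production, migration and identity of upper layer neurons, and they can bind DNA together with SOX proteins. RORB is a nuclear receptor that marks the granular layer, where thalamic axons arrive. MEF2C is a MADS box protein of postmitotic neurons that acts in neuronal differentiation and synapse number, and class IIa histone deacetylases repress it.

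Levels were given as TPM (transcripts per 1000000 transcripts), a unit that corrects for transcript length and has 1 fixed total in every library, so the sequencing depth is unknown. Between 16098 and 21210 genes had a value above 0 per library. One library, NSC PN replicate 3, carried a cell type label of basal progenitor, while its title, description and reporter line said NSC. It was kept with NSC on those labels. Hes5, a Notch target of stem cells, had 442 to 536 TPM in the 3 NSC PN libraries, against 6.35 to 8.21 TPM in BP PN libraries. The 1 call below that is lost without it, that of Pou3f2 in the BP against NSC change, is named there. The marker lists followed the labels in part. The summed level of 12 neuron markers was 6799 to 10560 TPM in NBN, 4488 to 7810 TPM in BP and 419.5 to 6870 TPM in NSC, so these markers were also present in BP and NSC. The summed level of 10 stem cell and radial glia markers was 235 to 496 TPM in NBN, 555 to 1009 TPM in BP and 1628 to 12090 TPM in NSC. The summed level of 8 basal progenitor markers was 159.9 to 337 TPM in NBN, 969 to 1804 TPM in BP and 189.8 to 1970 TPM in NSC. The ranges of BP and NSC overlapped, so this list did not separate them. In the test described below, 1 of the 8 was called higher in BP than in NSC and 0 lower. Within NSC, neuron markers were highest at E15.5, at 5585 to 6870 TPM, and E16.5, at 3948 to 6361 TPM, and 1930 to 3023 TPM at E17.5. Over the same stages the sum of 8 astroglia markers was 169.9 to 286 TPM at E15.5, 219 to 474 TPM at E16.5 and 1060.0 to 1479 TPM at E17.5. In bulk samples, fewer cells of a type and less RNA per cell cannot be told apart, and this holds for every level given here.

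**Figure D1:**
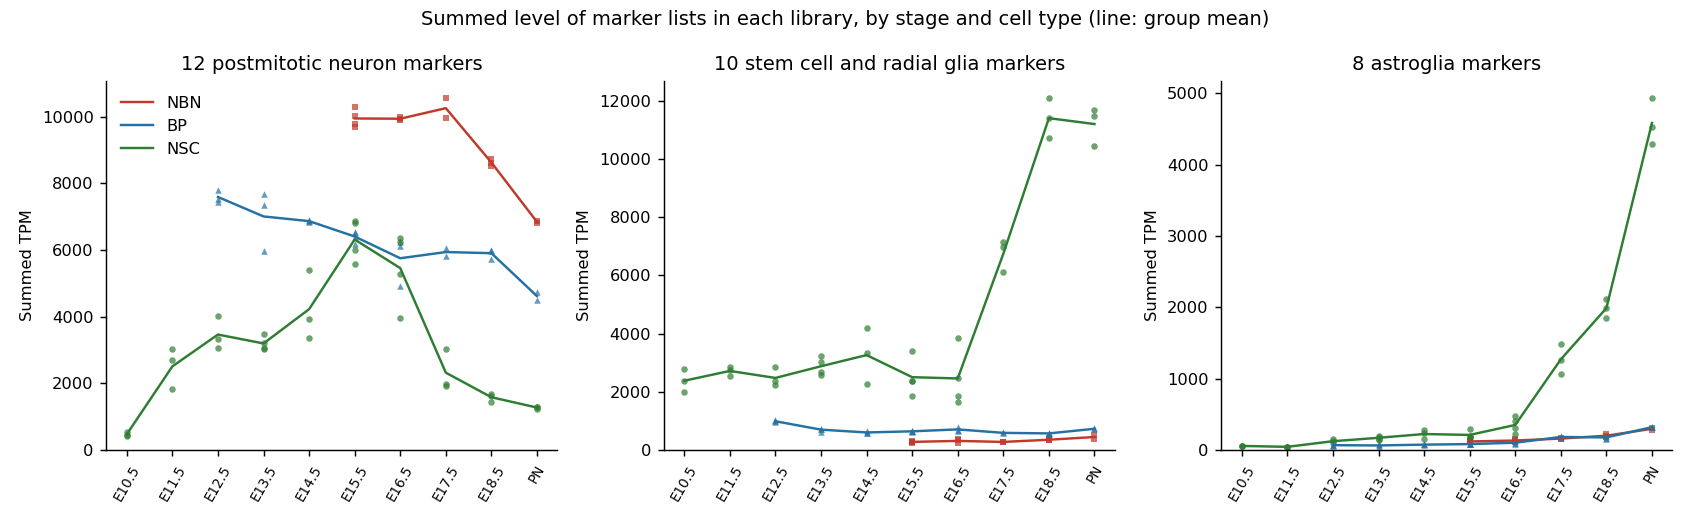
Summed TPM of 3 marker lists (y axes) by stage (x axes) in NBN (red squares), BP (blue triangles) and NSC (green circles), 1 point per library, with lines through the group means. Neuron markers in NSC peak at E15.5 and E16.5, and stem cell and astroglia markers in NSC are high from E17.5 on.

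The 7 genes differed first in how much their level moved over the 23 groups. The highest group mean was 547.0 times the lowest for Mef2c, 42.2 times for Pou3f2, 26.6 times for Rorb, 22.8 times for Pou3f1, 16.4 times for Cux2, 7.72 times for Pou3f3 and 2.87 times for Cux1. Pou3f3 had the highest median over the 70 libraries, 332 TPM, and Rorb the lowest, 2.70 TPM. In the order of the 23 group means, neighbouring groups overlapped for most of the 22 neighbour pairs. Libraries did not overlap in 1 pair for Cux1, 4 pairs each for Cux2, Pou3f2, Pou3f3 and Rorb, 5 pairs for Pou3f1 and 6 pairs for Mef2c. The orders are therefore coarse, and each is a description without a test.

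**Figure D2:**
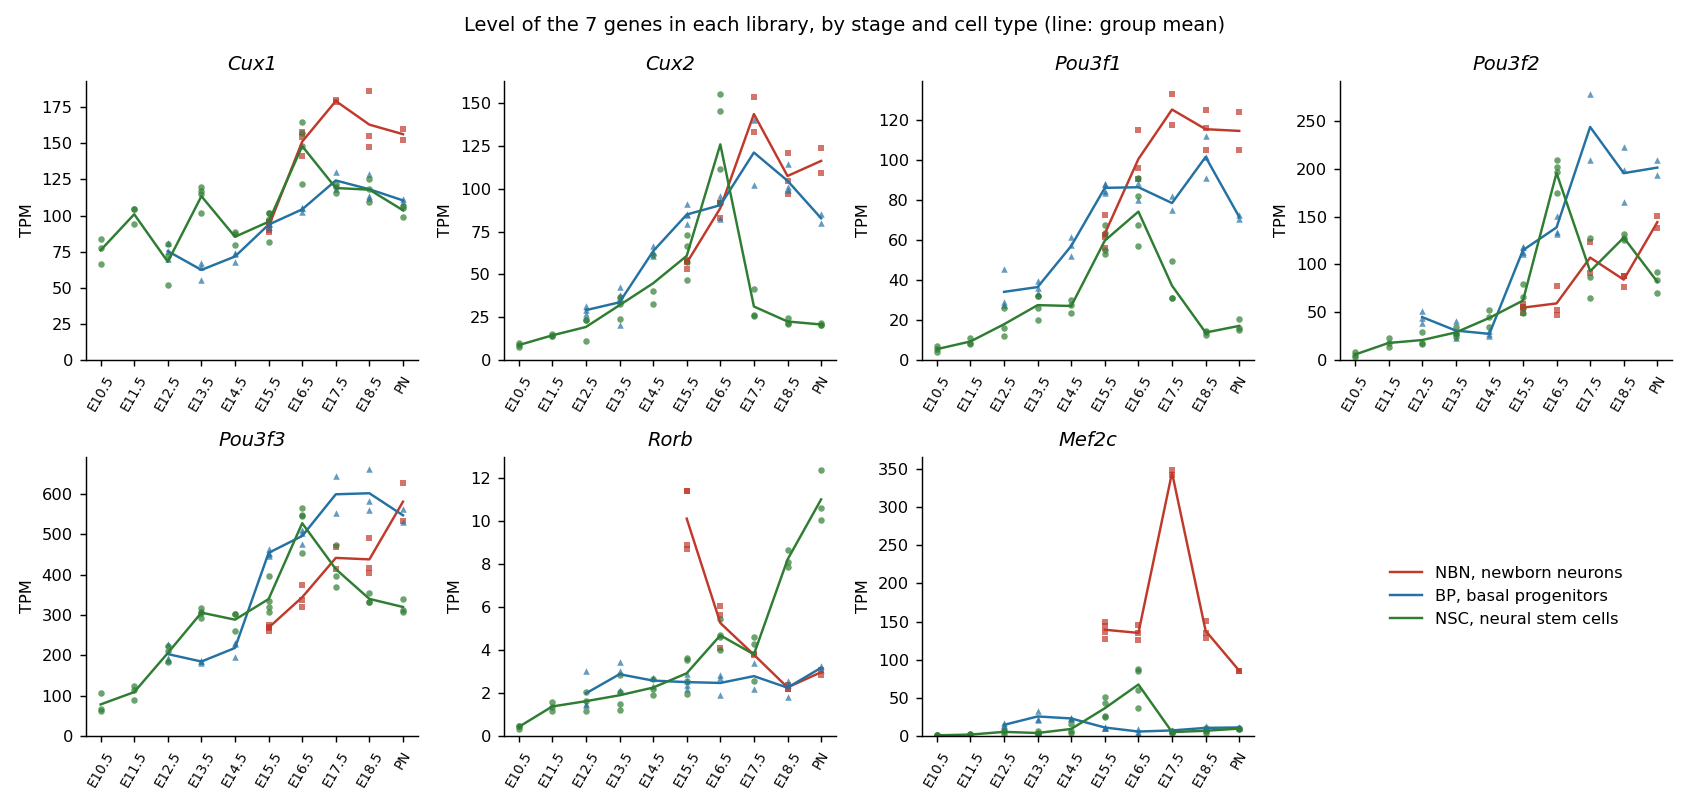
TPM (y axes, linear, 1 scale per gene) of the 7 genes by stage (x axes) in NBN (red squares), BP (blue triangles) and NSC (green circles), 1 point per library, with lines through the group means. Mef2c is high in NBN, Rorb in late NSC and NBN E15.5, and Cux2 and Pou3f1 drop in NSC after E16.5 while they stay high in NBN and BP.

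Differences were tested with limma on log2(TPM + 1) over 15508 genes, those whose mean reached 1 TPM in any of the 23 groups, a filter that all 7 passed. Calling a gene required an adjusted p (Benjamini-Hochberg) under 0.05 and a log2 difference of 1 or more in size, and the values below are differences on that scale ± SE. This scale understates the change of low genes, which here concerns Rorb and the earliest levels of Mef2c. Between BP and NSC over 8 shared stages, 1 of the 7 genes was called (Pou3f1, higher), where 8.09% of all genes were called and 1.87% were higher. Between NBN and BP over 5 shared stages, 2 were called (Mef2c higher, Pou3f2 lower), where 9.42% of all genes were, 4.36% higher and 5.06% lower. Between NBN and NSC over the same 5 stages, 3 were called (Mef2c, Pou3f1 and Cux2, all higher), where 19.1% of all genes were and 6.51% were higher. The 3 cell type comparisons share their libraries, so they are not independent of each other. Markers of other cells also differed between these sorts. In BP relative to NSC, 10 of 10 interneuron and ventral forebrain markers were called lower, with sums of 18.2 to 83.8 TPM in BP and 108 to 1241 TPM in NSC of the shared stages. In the same comparison 6 of 7 Cajal-Retzius neuron markers were higher, with sums of 145.2 to 586 TPM in BP and 53.1 to 214 TPM in NSC, as were 6 of 12 neuron markers. In NBN relative to NSC, 10 of 12 neuron markers were higher and 9 of 10 interneuron markers lower. Of the 7 Cajal-Retzius markers, 5 were higher and 1 was lower there. Their part in the differences of the 7 genes was not tested. Whether the libraries of a pair of groups overlapped at a stage is also given below, and this is a weak statement where groups are small. Over all genes, BP and NSC libraries did not overlap for 63% at E12.5, 44.5% at E13.5, 54.6% at E14.5, 35.3% at E15.5, 39.7% at E16.5, 77.6% at E17.5, 68.9% at E18.5 and 72.8% at PN. For NBN and BP the shares from E15.5 to PN were 49.8%, 62%, 82.3%, 61.3% and 66.5%, and for NBN and NSC 48.1%, 60%, 77.5%, 76.7% and 77%. Where libraries are said below not to overlap over a window of several stages, no share over all genes is available. Such statements describe the values only.

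Over time, 3 windows were compared: early (E10.5 and E11.5), mid (E13.5 to E15.5) and late (E17.5 to PN). In NSC, 5 of the 7 genes rose between the early and the mid window (Cux2, Pou3f1, Pou3f2, Pou3f3 and Mef2c), where 19% of all genes were called in either direction and 13.7% were higher. The split of the calls over all genes in that comparison, 72.3% of them higher, was 52.1% under quantile normalization and 52.7% under median ratio scaling, and quantile normalization moved the median of all genes, 0.144, to -0.039. All 5 calls held under both. In the same comparison 11 of 12 neuron markers were called higher, with sums of 419.5 to 539.7 TPM at E10.5 and 5585 to 6870 TPM at E15.5, and 5 of 5 erythroid markers were called lower, with sums of 3053 to 8018 TPM at E10.5, 1186 to 6269 TPM at E11.5 and 0.503 to 106.5 TPM over the mid window. The part of either list in the 5 rises was not tested. Between the mid and the late window, 2 genes rose in NSC (Pou3f2 and Rorb), where 11.8% of all genes were called and 9.31% were higher, and 2 rose in BP (Pou3f2 and Pou3f3), where 4.71% were and 3.29% were higher. In NBN, which were compared between the late window and E15.5 with E16.5, 1 fell (Rorb), where 2.33% of all genes were called and 1.06% were lower. The median over all genes tested was 0.12 in both late minus mid comparisons, against 0.20 for the 7 genes in NSC and 0.64 in BP.

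The change over time itself differed between BP and NSC for 4 of the 7 genes (Cux2, Pou3f1 and Pou3f2 with a higher difference, Rorb with a lower one), where 9.7% of all genes were called, 2.86% higher and 6.85% lower. The value of Pou3f2 sat on the threshold, as described with that gene. Between NBN and BP it differed for 1 gene (Rorb, lower), where 1.36% of all genes were called and 0.941% were lower.

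**Figure D3:**
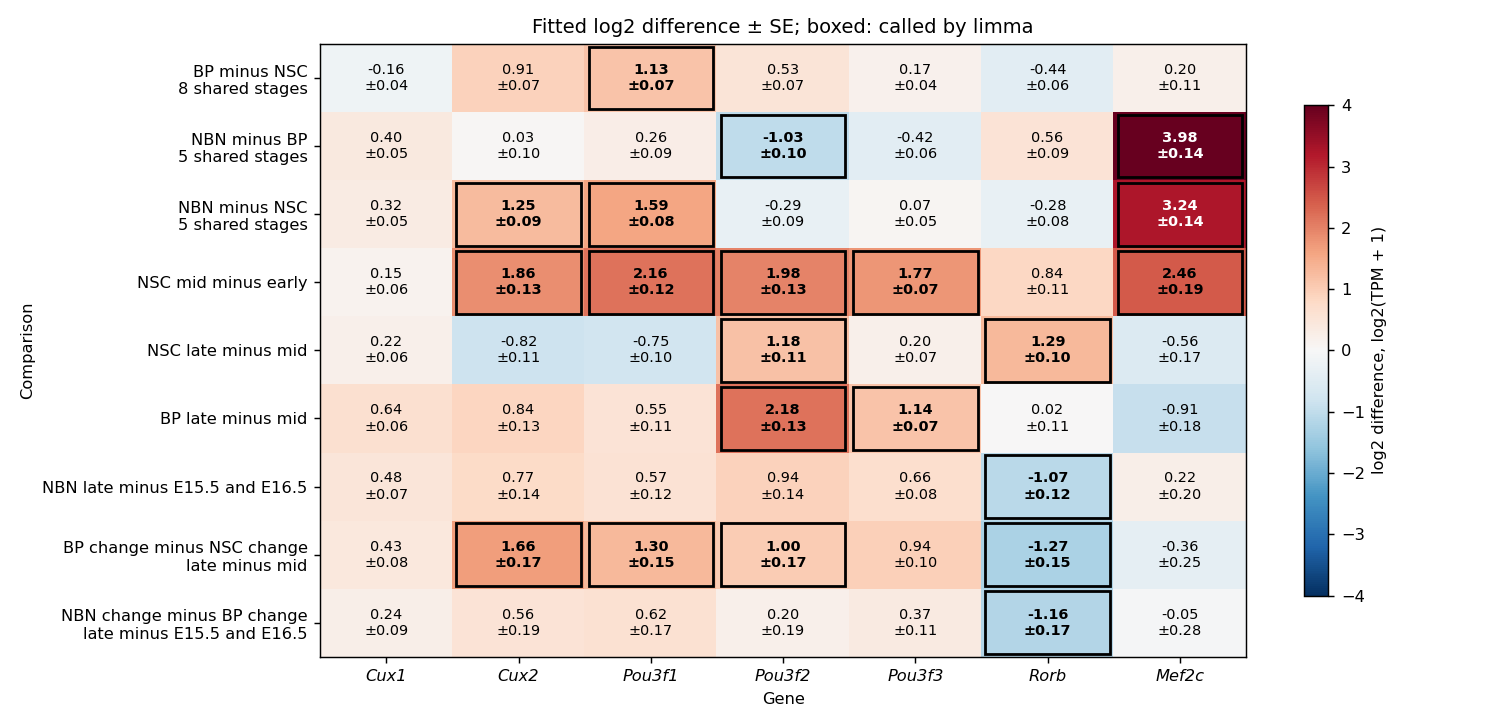
Fitted log2 difference ± SE on the log2(TPM + 1) scale for the 7 genes (columns) in 9 comparisons (rows), coloured by value and boxed where limma called the gene. The cell with the highest value is Mef2c in NBN minus BP, 3.98 ± 0.14, and no cell of Cux1 is boxed.

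Mef2c had the widest range of levels. The gene lies on the plus strand of chromosome 13 (chr13:83504034-83667080, GRCm38, 31 annotated transcripts), and no other annotated gene overlaps it. NBN libraries held 85.4 to 349 TPM with a median of 136 TPM (n = 14), against 2.80 to 12.4 TPM with a median of 10.2 TPM in BP (n = 14). Every NBN library lay above every BP library, at each stage and over all 5, and 11.8% of all genes had NBN above BP at each of the 5 stages. The difference was 3.98 ± 0.14 (limma, adjusted p = 2.01e-30), a 15.8-fold ratio on the log2(TPM + 1) scale. The 17 NSC libraries of these stages held 3.84 to 87.6 TPM with a median of 10.8 TPM, and the difference of NBN from NSC was 3.24 ± 0.14 (limma, adjusted p = 1.5e-28). At each of the 5 stages the NBN libraries lay above the NSC libraries of that stage, although the highest NSC library, at E16.5, passed the lowest NBN library, at PN. NBN lay above NSC at each of the 5 stages for 8.29% of all genes.

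Within NBN, Mef2c peaked at 1 stage. It had 137, 127, 144 and 149 TPM at E15.5 and 146, 125.2 and 134 TPM at E16.5. At E17.5 the values were 349 and 342 TPM, at E18.5 151, 134 and 128 TPM and at PN 85.4 and 85.6 TPM. Both E17.5 libraries stood far above the others, both PN libraries were the lowest, and E15.5, E16.5 and E18.5 overlapped. The comparison of the late window with E15.5 and E16.5 was 0.22 ± 0.20 (limma, adjusted p = 0.415) and turned to -0.33 without E17.5. Microglia also make Mef2c. The sum of 11 microglia markers in NBN was 16.7 to 21.2 TPM at E15.5, 14.3 to 50.5 TPM at E16.5, 40.3 to 43.8 TPM at E17.5, 39.1 to 94.5 TPM at E18.5 and 81.4 to 89.8 TPM at PN, against 6.69 to 29.9 TPM over all BP libraries and 7.01 to 60.3 TPM over all NSC libraries. Between NBN and BP, 6 of the 11 markers were called higher, and in late NBN 5 of 11, and their part in the Mef2c level was not tested. None of the 11 was at 0 in all NBN libraries of a stage, and Cx3cr1, which encodes a chemokine receptor of microglia, averaged 2.34 TPM in NBN at E17.5.

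In BP and NSC the same gene followed other courses. BP held 22.1, 33.0 and 21.2 TPM at E13.5 and 23.4, 22.8 and 22.1 TPM at E14.5. At E16.5 BP held 2.80, 8.93 and 5.17 TPM and at PN 10.9 and 11.1 TPM. The E13.5 and E14.5 libraries stood above all other BP libraries, and the late minus mid difference in BP was -0.91 ± 0.18, short of the threshold (limma, adjusted p = 2.91e-05). It passed the threshold under quantile normalization, at -1.07, under median ratio scaling, at -1.04, and without PN, at -1.02. NSC held 0.672, 0.673 and 0.550 TPM at E10.5, 5.85, 3.46, 2.73 and 2.70 TPM at E13.5 and 50.3, 25.8, 25.3 and 43.5 TPM at E15.5. At E16.5 NSC held 60.7, 87.6, 84.5 and 36.5 TPM and at E17.5 5.87, 3.84 and 5.04 TPM. The E15.5 and E16.5 libraries of NSC stood above all other NSC libraries, which are also the stages at which neuron markers in NSC summed highest. The part of those neuron markers in the Mef2c level was not tested. Mid-window NSC exceeded early NSC by 2.46 ± 0.19 (limma, adjusted p = 2.32e-17), with no overlap between the windows, while late minus mid was -0.56 ± 0.17 and was not called (limma, adjusted p = 0.00251). Between BP and NSC the difference over 8 stages was 0.20 ± 0.11 (limma, adjusted p = 0.077). That mean covers opposite orders by stage: BP libraries lay above NSC libraries at E12.5, E13.5, E14.5, E17.5 and PN, and below them at E15.5 and E16.5.

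The promoter of Mef2c is printed with those of Pou3f2 and Pou3f3 because these 3 genes hold the extremes of the set: Mef2c the NBN pattern, Pou3f2 and Pou3f3 the joint late pattern of BP. Each line gives the 250 bases before the first RefSeq start of the gene (GRCm38.p6), written along the gene, with capitals for CCAAT boxes (CCAAT, or ATTGG on the other strand) and TATA boxes (TATAAA, or TTTATA on the other strand).
Mef2c: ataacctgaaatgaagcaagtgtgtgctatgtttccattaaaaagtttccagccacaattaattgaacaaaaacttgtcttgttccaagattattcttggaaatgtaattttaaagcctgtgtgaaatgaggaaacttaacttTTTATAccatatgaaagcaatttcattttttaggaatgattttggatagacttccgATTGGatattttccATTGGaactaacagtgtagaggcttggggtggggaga
Pou3f2: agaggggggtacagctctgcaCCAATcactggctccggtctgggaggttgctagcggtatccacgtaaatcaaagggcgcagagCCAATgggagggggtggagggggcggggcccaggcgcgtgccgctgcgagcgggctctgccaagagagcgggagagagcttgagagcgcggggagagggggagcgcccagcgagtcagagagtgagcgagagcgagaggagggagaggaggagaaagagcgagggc
Pou3f3: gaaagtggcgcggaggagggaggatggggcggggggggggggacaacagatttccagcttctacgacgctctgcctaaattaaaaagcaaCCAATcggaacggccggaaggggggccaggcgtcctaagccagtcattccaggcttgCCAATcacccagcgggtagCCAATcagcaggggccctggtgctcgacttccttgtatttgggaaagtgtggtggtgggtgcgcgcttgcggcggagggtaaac
The Mef2c window (chr13:83503784-83504033, plus strand) had a GC content of 33.6%, with 3.52% of windows lower, and held 2 CCAAT boxes and 1 TATA box. The Pou3f2 window (chr4:22488367-22488616, minus strand) had 66.8% GC and 2 CCAAT boxes, and the Pou3f3 window (chr1:42695518-42695767, plus strand) had 60.8% GC and 3 CCAAT boxes. Over all 32851 windows of this length the median GC content was 52.4%, 33.8% of windows held a CCAAT box and 12.4% a TATA box. None of the 3 windows held the POU octamer (ATGCAAAT or ATTTGCAT, in 1.6% of windows), the MEF2 core (TATTTTTA or TAAAAATA, 2.45%) or the E-box searched (CATCTG or CAGATG, 14.4%). Mef2c has 2 further RefSeq starts, not printed, whose windows had 44.8% and 49.6% GC. The window with 49.6% (chr13:83573357-83573606) did hold the E-box. These are matches of letters, not sites.

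Pou3f2 had its highest group mean in BP at E17.5, 243.7 TPM. NSC at E16.5 (195.5 TPM) stood level with BP at PN (201.2 TPM) and at E18.5 (195.4 TPM). It is a single-exon gene on the minus strand of chromosome 4 (chr4:22482780-22488366). BP held 40.6, 29.2 and 22.9 TPM at E13.5, 25.2, 30.1 and 27.0 TPM at E14.5 and 118, 113, 111 and 118 TPM at E15.5. Between E14.5 and E15.5 all 4 later libraries stood above all earlier BP libraries. At E17.5 BP held 278 and 209 TPM, at E18.5 165.02, 222 and 199 TPM and at PN 209 and 194 TPM. Late BP libraries all lay above mid-window ones, by 2.18 ± 0.13 (limma, adjusted p = 7.3e-21), against 3.29% of all genes called higher there. In the same comparison 4 of 8 astroglia markers were called higher, with sums of 156.9 to 319 TPM late and 44.9 to 83.9 TPM mid, and 4 of 10 interneuron markers, with sums of 24.8 to 83.8 TPM late and 18.2 to 31.3 TPM mid. Their part in the late BP levels of Pou3f2 and Pou3f3 was not tested.

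NBN held less Pou3f2 than BP. NBN libraries had 47.3 to 151 TPM with a median of 77.1 TPM, against 111 to 278 TPM with a median of 158 TPM in BP (n = 14 each). The full ranges overlapped, but at each of the 5 stages every NBN library lay below every BP library of that stage, which held for 18.6% of all genes. Pou3f2 fell by 1.03 ± 0.10 in NBN relative to BP (limma, adjusted p = 1.73e-13), close to the threshold of 1. The call was lost, with the same sign, at -0.93 under median ratio scaling, -0.99 with a pseudocount of 5 TPM, -0.95 from E17.5 on, -0.98 without E16.5 and -0.99 without E17.5. Leaving out BP E17.5 replicate 1 (-0.99) or NBN E17.5 replicate 2 (-0.99) also ended it.

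In NSC the levels were 3.75, 5.53 and 8.06 TPM at E10.5 and 54.6, 48.8, 79.4 and 66.1 TPM at E15.5. At E16.5 they were 174, 202, 209.5 and 197 TPM, at E17.5 128, 64.5 and 86.5 TPM and at PN 83.4, 91.8 and 70.4 TPM. The 4 E16.5 libraries were the highest of NSC and the 3 E10.5 libraries the lowest. Mid-window NSC exceeded early NSC by 1.98 ± 0.13 (limma, adjusted p = 6.46e-20). Late NSC exceeded mid-window NSC by 1.18 ± 0.11 (limma, adjusted p = 2.13e-13), and with the mid window widened to E12.5 to E16.5, which adds the E16.5 peak, by 0.95, no longer called. In late NSC 8 of 8 astroglia markers and 6 of 6 oligodendrocyte precursor markers were also called higher. For the BP change minus the NSC change, all markers of both lists were called lower. Their part in the Pou3f2 values was not tested. The change over time was 1.00 ± 0.17 larger in BP than in NSC (limma, adjusted p = 1.88e-06). This value sat on the threshold, and leaving out single libraries, which gave 0.92 to 1.09, ended the call in 20 of 37 cases. It ended without NSC PN replicate 3, the library with conflicting labels, at 0.97, without PN, at 0.91, and without E17.5, at 0.84. Between BP and NSC over 8 stages the difference was 0.53 ± 0.07, not called, and from E17.5 on it was 1.10 and called. Of 15508 genes, 2865 were called from E17.5 on, 911 of them higher. BP libraries lay below NSC libraries at E14.5 and E16.5 and overlapped them at E13.5. At E12.5, E15.5, E17.5, E18.5 and PN they lay above them.

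Pou3f3 was the most abundant of the set in TPM and shared much of this course. It is a single-exon gene on the plus strand of chromosome 1 (chr1:42695768-42703176), and AC122898.1, a gene annotated on the same strand, overlaps its exon, so reads there are uncertain. BP held 227, 231 and 196 TPM at E14.5, 464, 454, 446 and 451 TPM at E15.5 and 560.5, 662 and 582 TPM at E18.5. As for Pou3f2, all E15.5 libraries of BP stood above all earlier ones. Late BP exceeded mid-window BP by 1.14 ± 0.07 (limma, adjusted p = 2.9e-19), and late NSC differed from mid-window NSC by 0.20 ± 0.07, not called. The difference between these changes was 0.94 ± 0.10, just short of the threshold (limma, adjusted p = 7.17e-12), and passed it without E17.5, at 1.03. In NSC it had 62.2, 65.5 and 106 TPM at E10.5, 452, 547, 566 and 544 TPM at E16.5 and 312, 339 and 307 TPM at PN. Early NSC libraries all lay below mid-window ones, and the gene rose by 1.77 ± 0.07 between these windows (limma, adjusted p = 5.41e-28). NBN differed from BP by -0.42 ± 0.06 (limma, adjusted p = 4.49e-09), under the threshold, although NBN libraries lay below BP libraries at 4 of the 5 stages and overlapped them at PN. Non-overlap alone is common here: at E17.5, where each of these groups has 2 libraries, it held for 82.3% of all genes.

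Pou3f1 was higher in BP than in NSC, most of all at the late stages. It is a single-exon gene on the plus strand of chromosome 4 (chr4:124656807-124660655). BP held 27.7 to 112 TPM with a median of 74.9 TPM (n = 23), against 11.9 to 90.7 TPM with a median of 29.8 TPM in NSC of the same 8 stages (n = 27). The ranges overlapped over all stages, whereas within a stage every BP library lay above every NSC library except at E16.5. For 2.33% of all genes BP lay above NSC at 7 or more of the 8 stages. BP exceeded NSC by 1.13 ± 0.07 (limma, adjusted p = 3.62e-22). The difference was 0.63 over the stages through E16.5, under the threshold, and over the later ones it was 1.97.

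Single stages show where the groups parted. BP held 81.8 and 74.9 TPM at E17.5 and 101, 112 and 90.9 TPM at E18.5. NSC held 56.8, 90.7, 81.7 and 67.2 TPM at E16.5, 49.6, 30.9 and 30.8 TPM at E17.5 and 12.6, 14.4 and 14.2 TPM at E18.5. All E18.5 and PN libraries of NSC lay below all NSC libraries of E15.5 to E17.5. Late minus mid was -0.75 ± 0.10 in NSC (limma, adjusted p = 4.59e-09) and 0.55 ± 0.11 in BP (limma, adjusted p = 4.72e-05), both under the threshold of 1, and the NSC value passed it under quantile normalization, at -1.03, and without E17.5, at -1.15. The difference between these changes was itself called, at 1.30 ± 0.15 (limma, adjusted p = 2.6e-10). The fall of neuron markers in NSC ran alongside: 9 of 12 were called lower in late than in mid-window NSC, and 2 of 12 in late than in mid-window BP. For the BP change minus the NSC change, 6 of 12 neuron markers and 6 of 7 Cajal-Retzius markers were called higher. In the same comparison 8 of 8 astroglia, 6 of 6 oligodendrocyte precursor and 5 of 10 stem cell and radial glia markers were called lower. Their part in the Pou3f1 values was not tested. Before that, mid-window NSC exceeded early NSC by 2.16 ± 0.12 (limma, adjusted p = 1.65e-23), with 4.10, 5.47 and 6.86 TPM at E10.5, the lowest 3 libraries of the series. NBN held 56.0, 61.6, 72.3 and 62.4 TPM at E15.5 and 117 and 133 TPM at E17.5, and exceeded NSC by 1.59 ± 0.08 (limma, adjusted p = 4.02e-24). Split by stage, it was 0.26 for E15.5 with E16.5 and 2.47 for the later stages, where NBN and NSC libraries did not overlap. An annotated antisense gene, Gm2164, shares 31-base words with Pou3f1, and 8.17% of the 31-base words of the Pou3f1 transcript also occur in other genes, so part of its level is uncertain.

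Cux2 followed Pou3f1 closely. It lies on the minus strand of chromosome 5 (chr5:121856366-122050102), with 2 antisense genes annotated inside or across it, of which Gm15637 touches an exon. As strand use in counting is not stated, reads of the pair may not be told apart, which holds for Cux1 and its antisense gene Gm16599 too. NSC held 7.70, 8.73 and 9.88 TPM at E10.5 and 32.8, 40.6 and 61.2 TPM at E14.5. At E16.5 NSC held 111, 145.3, 156 and 91.6 TPM, at E17.5 41.6, 25.8 and 26.5 TPM and at PN 21.4, 20.4 and 20.6 TPM. The 4 E16.5 libraries were the highest of NSC, and all 9 late libraries lay below them. Mid-window NSC exceeded early NSC by 1.86 ± 0.13 (limma, adjusted p = 4.41e-19), and late minus mid was -0.82 ± 0.11, under the threshold (limma, adjusted p = 7.35e-09), but -1.05 and called under quantile normalization. BP held 20.5, 42.8 and 38.0 TPM at E13.5 and 140.1 and 102 TPM at E17.5, and late minus mid was 0.84 ± 0.13, not called (limma, adjusted p = 9.19e-08). The fitted values had opposite signs, and the difference between them, 1.66 ± 0.17, was called (limma, adjusted p = 3.45e-12). For that difference 6 of 12 neuron markers and 6 of 7 Cajal-Retzius markers were called higher, and in late NSC 9 of 12 neuron markers were lower. Called lower for that difference were 8 of 8 astroglia, 6 of 6 oligodendrocyte precursor and 5 of 10 stem cell and radial glia markers. Their part in the Cux2 values was not tested.

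Between cell types, Cux2 differed most at the late stages. BP differed from NSC by 0.91 ± 0.07 over 8 stages (limma, adjusted p = 1.08e-16), just under the threshold. From E17.5 on, BP libraries held 80.2 to 140.1 TPM with a median of 101 TPM (n = 7), against 20.4 to 41.6 TPM with a median of 21.9 TPM in NSC (n = 9). All BP libraries lay above all NSC libraries there, by 2.02 (limma, adjusted p = 1.88e-20), and without E16.5 alone the difference over the other 7 stages was 1.11 and called. Of 15508 genes, 2865 were called from E17.5 on, 911 of them higher, and 1503 without E16.5, 436 of them higher. NBN held 57.4, 58.7, 53.0 and 57.9 TPM at E15.5 and 154 and 133 TPM at E17.5. Over 5 stages NBN exceeded NSC by 1.25 ± 0.09 (limma, adjusted p = 4.66e-18), yet the same comparison gave -0.28 for E15.5 with E16.5 and 2.27 for the later stages. NBN and BP differed by 0.03 ± 0.10 (limma, adjusted p = 0.767), a mean that covers opposite orders by stage. NBN libraries lay below BP libraries at E15.5 and above them at PN, and overlapped them at E16.5, E17.5 and E18.5.

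Cux1 was the most even of the 7 genes and was called in none of the 9 comparisons. It lies on the minus strand of chromosome 5 (chr5:136248135-136567490) and also encodes Golgi protein isoforms, which gene totals cannot separate. NBN held 95.8, 95.3, 88.5 and 89.99 TPM at E15.5, 180.2 and 178 TPM at E17.5 and 153 and 160.0 TPM at PN. BP held 55.4, 64.5 and 67.4 TPM at E13.5 and 129.9 and 119 TPM at E17.5, and NSC 66.6, 77.9 and 83.5 TPM at E10.5 and 148, 157, 164.9 and 122 TPM at E16.5. NBN libraries lay above BP libraries at each stage but E15.5, where they overlapped. The difference of NBN from BP was 0.40 ± 0.05 (limma, adjusted p = 1.95e-10), and late minus mid in BP, its largest value, was 0.64 ± 0.06 (limma, adjusted p = 4.37e-13). Both passed the threshold for the adjusted p and missed that for the size. Mid minus early in NSC was 0.15 ± 0.06, where the other 6 genes had 0.84 to 2.46, and turned to -0.11 under median ratio scaling.

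Rorb, the lowest of the set, was high in late NSC and in NBN of E15.5. It lies on the minus strand of chromosome 19 (chr19:18930605-19111196). NBN held 11.4, 8.72, 8.90 and 11.4 TPM at E15.5, 4.07, 6.04 and 5.64 TPM at E16.5 and 3.80 and 3.75 TPM at E17.5. At E18.5 NBN held 2.19, 2.37 and 2.20 TPM and at PN 3.09 and 2.84 TPM. All E15.5 libraries stood above all later ones, and late NBN libraries all lay below those of E15.5 and E16.5. Rorb fell by 1.07 ± 0.12 in late NBN relative to E15.5 and E16.5 (limma, adjusted p = 1.93e-10). BP held 1.44 to 3.46 TPM over all 23 libraries, with a late minus mid difference of 0.02 ± 0.11 (limma, adjusted p = 0.86). The NBN change minus the BP change of the same stages was -1.16 ± 0.17 (limma, adjusted p = 9.56e-07).

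In NSC, Rorb rose late. NSC held 0.322, 0.472 and 0.447 TPM at E10.5, 3.55, 1.96, 2.55 and 3.60 TPM at E15.5 and 4.58, 2.53 and 4.27 TPM at E17.5. At E18.5 NSC held 8.09, 8.67 and 7.86 TPM and at PN 12.4, 10.6 and 10.03 TPM. The 3 PN libraries were the highest of NSC, and E18.5 and PN libraries stood above all other NSC libraries. Late NSC exceeded mid-window NSC by 1.29 ± 0.10 (limma, adjusted p = 5.05e-17), and the BP change minus this NSC change was -1.27 ± 0.15 (limma, adjusted p = 2.22e-10). In the same window all 8 astroglia markers and all 6 oligodendrocyte precursor markers were called higher in NSC, and their part in the Rorb level was not tested. The calls of Rorb depended on the scale. With a pseudocount of 5 TPM all 4 calls were lost, with differences of 0.75 for late NSC, -0.64 for late NBN, -0.73 for BP against NSC change and -0.68 for NBN against BP change, and late NSC was 0.88 under quantile normalization. As NBN and NSC crossed over, their mean difference of -0.28 ± 0.08 over 5 stages was 0.825 for E15.5 with E16.5 and -1.02, called, for the later stages. The latter is close to the threshold, and of 15508 genes 4088 were called there, 2647 of them lower. Likewise NBN minus BP was 0.56 ± 0.09 over 5 stages and 1.25, called, for E15.5 with E16.5, where 1692 genes were called, 822 of them higher.

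The genes' patterns over the 23 group means were alike to different degrees. Pearson's r of log2(TPM + 1) was highest for Cux2 with Pou3f1, 0.967, and for Pou3f2 with Pou3f3, 0.944. Between these pairs it was also high: 0.831 and 0.762 for Cux2 with Pou3f3 and Pou3f2, and 0.799 and 0.705 for Pou3f1 with the same genes. Mef2c had 0.724 with Pou3f1, and Rorb had 0.218 to 0.485 with each of the others. These correlations are over 23 groups that share cell types and stages, and they carry no test. Among 9222 other genes with a group mean of at least 20 TPM somewhere, the 3 nearest to each gene were named. They were Msra (r = 0.89), Trpc4 (0.88) and Mical2 (0.839) for Cux1, and Frmd4a (0.97), Pou3f1 (0.967) and Tsc22d1 (0.964) for Cux2. For Pou3f1 they were Sema7a (0.975), Mmp24 (0.973) and Hcn3 (0.973), for Pou3f2 Crebrf (0.963), Slc25a36 (0.957) and Kansl1l (0.956), and for Pou3f3 Meis2 (0.948), Palmd (0.947) and Sncaip (0.947). For Mef2c they were Fam19a2 (0.977), Ntsr1 (0.97), a receptor gene of corticothalamic deep layer neurons, and Macrod2 (0.965). For Rorb, over 9223 genes, they were B3gat2 (0.931), Grm5 (0.885) and Rap1gap (0.879), the loosest likeness after that of Cux1.

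**Figure D4:**
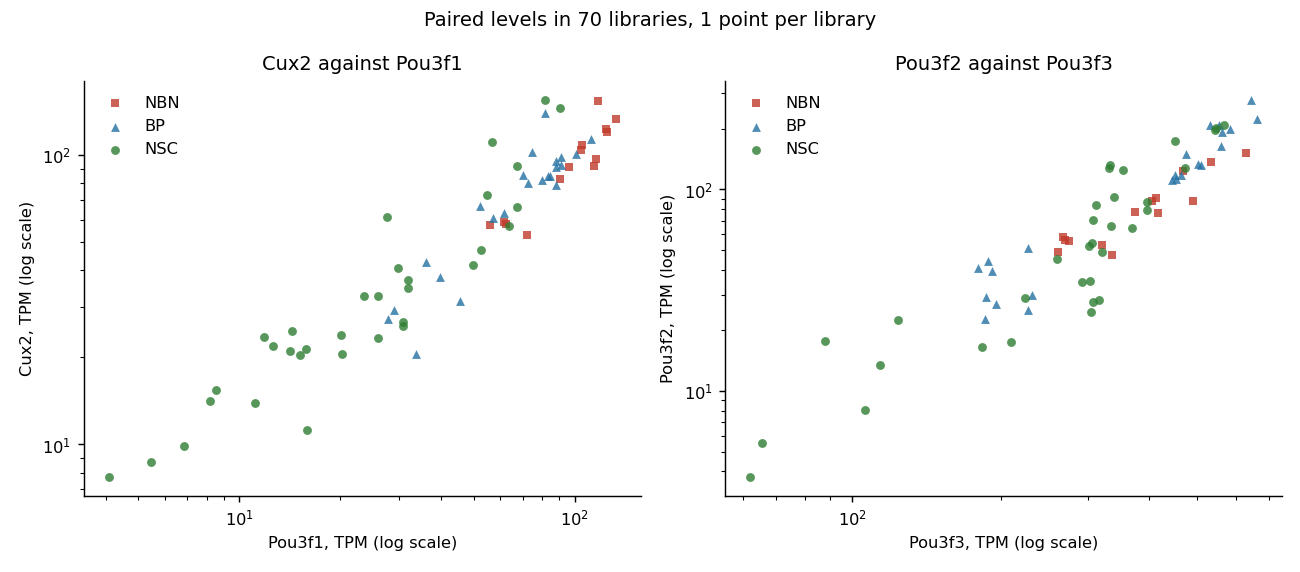
Level of Cux2 (y axis) against Pou3f1 (x axis, left) and of Pou3f2 (y axis) against Pou3f3 (x axis, right) in TPM on log axes, 1 point per library, in NBN (red squares), BP (blue triangles) and NSC (green circles). The lowest points of both panels are NSC libraries of E10.5, and NSC libraries of E16.5 lie among the highest.

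Other genes with upper layer expression were set beside these. Of 11 symbols listed 10 were in the table and tested, Nectin3 and its older symbol Pvrl3 being 1 gene. Between the mid and late windows 1 of 10 rose in BP, where 3.29% of all genes were called higher. This was Unc5d, a netrin receptor gene of late progenitors and upper layer neurons (2.48 ± 0.16, mean 142 TPM late and 41.4 TPM mid, limma, adjusted p = 1.41e-19). In NSC, where 2.45% of all genes were called lower, 2 of 10 fell: Bhlhe22, a neuronal basic helix-loop-helix gene, by 2.10, and the semaphorin receptor gene Plxna4 by 1.65. In NBN, where 1.27% of all genes were called higher, 3 of 10 rose: Rasgrf2, a gene of upper layer neurons, by 1.93, Unc5d by 1.18 and Lmo4, a LIM-only cofactor gene, by 1.00. The medians over the 10 genes were 0.089 in BP, -0.18 in NSC and 0.37 in NBN, beside 0.64, 0.20 and 0.57 for the 7 genes and 0.12, 0.12 and 0.03 for all genes tested. The change was higher in BP than in NSC for 5 of the 10 and lower for none, as it was higher for 3 of the 7 genes and lower for 1. Over all genes 2.86% were called higher there and 6.85% lower. Of the 5, Bhlhe22 (2.11), Unc5d (1.98), Plxna4 (1.43) and Lhx2 (1.10) had the largest values.

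Deep layer genes served as the counterpart. Of 14 listed and tested, 6 fell and 0 rose in late BP, where 1.42% of all genes were called lower, among them Bcl11b (Ctip2), a determinant of subcerebral projection neurons, by 2.23, Fezf2, which acts upstream of it, by 1.72, and Sox5, a gene of early deep layer neurons, by 1.70. In late NBN 8 of 14 fell and 0 rose, where 1.06% of all genes were called lower, with Sox5 at -3.11, Fezf2 at -2.97, Tle4, a corepressor gene of corticothalamic neurons, at -1.96 and Bcl11b at -1.95. In late NSC, where 2.45% of all genes were called lower and 9.31% higher, 5 fell, Tbr1 (-2.21), a T-box gene of early-born neurons, and Bcl11b (-2.19) most, and 3 rose, Ctgf (1.94), Etv1 (1.91) and Crym (1.18). The medians were -0.66 in BP, -1.12 in NBN and -0.61 in NSC, opposite in sign to those of the 7 genes. In NSC this contrast was weak, as the median of the 7 genes, 0.20, lay near that of all genes, 0.12. There Cux1, Pou3f2, Pou3f3 and Rorb were above 0, while Cux2 (-0.82), Pou3f1 (-0.75) and Mef2c (-0.56) were below it. The median of the 10 upper layer genes in NSC, -0.18, had the sign of the deep layer genes. Mef2c was called higher in NBN than in BP, as were 5 of the 14 deep layer genes, which included Ntsr1 (4.15), Ldb2 (3.10) and Tshz3 (2.10), and 2 of the 10 upper layer genes, Rasgrf2 (1.57) and Inhba (1.14). In that comparison 1 of the 14 deep layer genes, Foxp2 (-1.22), and 2 of the 10 upper layer genes, Unc5d (-2.48) and Lhx2 (-1.37), were called lower, where 4.36% of all genes were higher and 5.06% lower.

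**Figure D5:**
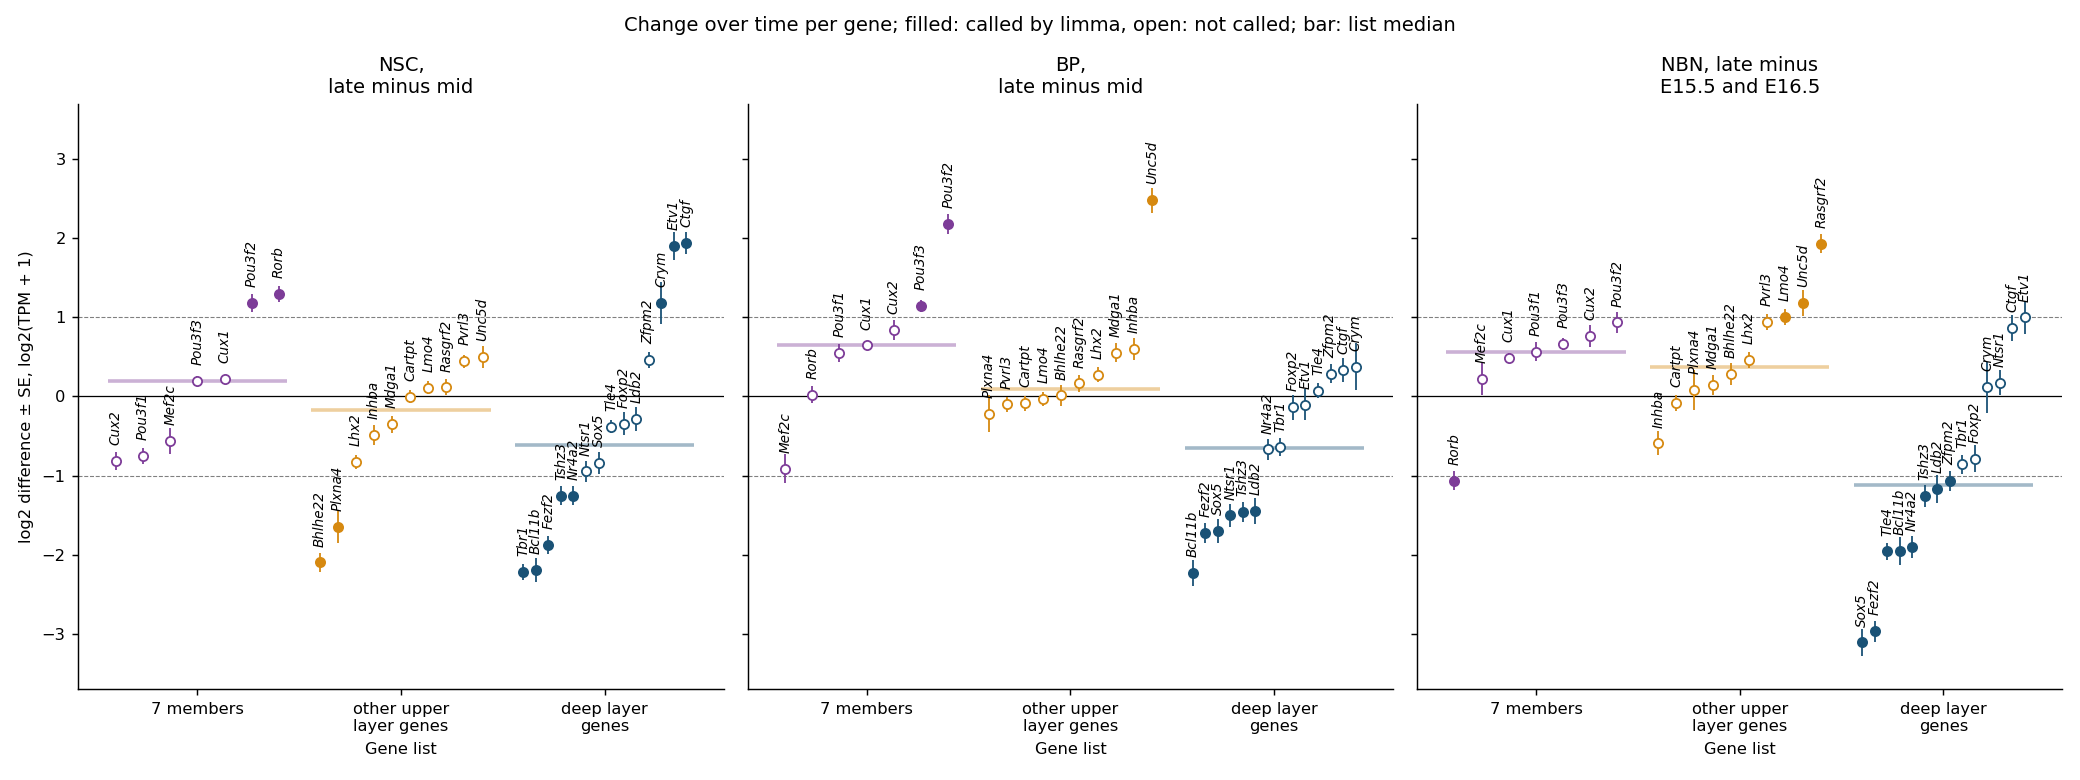
Log2 difference ± SE on the log2(TPM + 1) scale (y axis) of the 7 genes (purple), 10 other upper layer genes (orange) and 14 deep layer genes (dark blue) between the late and the earlier window in NSC, BP and NBN (panels). Filled points were called by limma, open points were not, dashed lines mark a difference of 1 and thick bars the list medians, which are lowest for deep layer genes in all 3 panels.

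Relatives and partners of the 7 genes were also measured. Of 21 listed members of the CUT, POU, ROR and MEF2 families 14 passed the filter. In late NSC, where 9.31% of all genes were called higher, 3 of these rose and none fell. Rora, the nearest relative of Rorb, rose by 1.32 (mean 2.82 TPM late and 0.373 TPM mid), Pou2f1 (Oct1) by 1.20 and Pou3f4 (Brn4), the fourth POU3 gene, by 1.14. In late BP, where 3.29% of all genes were called higher, 3 rose, Pou2f1 by 1.56, Onecut2 by 1.28 and Satb1 by 1.02. In late NBN none of the 14 was called. Of the other MEF2 genes, Mef2a had 31.8 TPM in NBN and 33.6 TPM in BP, with a difference of -0.10 ± 0.09, and Mef2d 55.0 TPM in NBN and 43.6 TPM in BP, with a difference of 0.34 ± 0.07. Neither was called. Of the 4 class IIa histone deacetylases, Hdac9 fell by 2.61 ± 0.09 in NBN relative to BP (limma, adjusted p = 2.07e-31), with a mean of 4.70 TPM in NBN and 31.6 TPM in BP, opposite to Mef2c. It rose in late BP by 1.86 and in late NBN by 1.60, and Hdac4, Hdac5 and Hdac7 were called in neither. Of the 4 SOX partners, Sox2, a stem cell gene, was lower by 2.63 in BP than in NSC and by 1.75 in NBN than in BP, whereas Sox4, Sox11 and Sox12 were called in neither comparison. In mid-window NSC Sox4 rose by 2.45 and Sox11 by 2.36 over the early window, in the comparison in which all 3 POU3 genes of the set rose.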

How the data were processed

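The 7 genes, the gene lists and the tests were chosen with earlier results of these data known. The authors estimated transcript abundance and deposited TPM per gene, and the submitters' processing notes name kallisto 0.43.0 and the builds mm10 and GRCm38.p2. Libraries came from the TruSeq RNA kit and were read as single-end short reads, per the labels' protocols. The sources used here do not state strand use in counting. Columns were tied to samples through their titles, and 47 symbols occurred on more than 1 row. Groups were fitted with limma 3.58.1 in R 4.3.3 on log2(TPM + 1), 1 mean per cell type and stage, 70 libraries, 47 residual degrees of freedom, with Benjamini-Hochberg adjustment over 15508 genes. The code was tested on simulated data. Depth per library is unknown. Named genes were the 7 members, listed genes called in the comparison described (at most 4 a direction) and the 3 nearest patterns, leaving out predicted, clone, ribosomal and mitochondrial names. Hes5, Cx3cr1, Mef2a and Mef2d fall outside that rule and were chosen after their values were seen. One gene of these lists is not reported here, and list counts leave it out. Alternatives covered pseudocount, filter, scaling, variance prior, windows, replicate number and each library left out. Coordinates and promoters are from GENCODE and RefSeq tables of GRCm38 and GRCm38.p6.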

Additional observations from a re-analysis of the deposited data

Results flagged for a closer look

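Tests of a difference between changes marked 5 results. From the mid to the late window, the change in BP exceeded that in NSC by 1.66 for Cux2, 1.30 for Pou3f1 and 1.00 for Pou3f2 on the log2(TPM + 1) scale, and for Rorb the BP change minus the NSC change was -1.27. The late change of Rorb in NBN minus that in BP was -1.16. Each is the interaction term of limma, and their adjusted p-values were 3.45e-12, 2.6e-10, 1.88e-06, 2.22e-10 and 9.56e-07 in this order. The comparisons share the BP libraries. A check for a single library far from the rest of its group, run on the 35 combinations of gene and group with 4 libraries, marked none, where chance marks about 1 in 20.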

How the results depend on the processing

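Values here are numbers of genes called or log2 differences by limma. Of 348 alternatives to the 9 counts over all genes, 330 were within 1.5 times, and of 2436 alternatives to the values of the 7 genes 2353 kept direction and side of the threshold. With a pseudocount of 0.1 TPM the counts became 2031 for BP against NSC, 2256 for NBN against BP, 2788 for late NSC, 1534 for late BP, 893 for late NBN and 374 for the NBN against BP change. A pseudocount of 5 TPM gave 634 for BP against NSC, 729 for NBN against BP, 1791 for NBN against NSC, 1625 for mid NSC, 918 for late NSC, 285 for late BP, 132 for late NBN, 780 for the BP against NSC change and 92 for the NBN against BP change. Up to E16.5, BP against NSC gave 592 and NBN against NSC 1567 genes, and from E17.5 BP against NSC gave 2865. The counts as reported were 1255, 1461, 2961, 2944, 1824, 730, 361, 1505 and 211. The share of calls that were higher moved under quantile normalization to 33.3% from 23.1% for BP against NSC, to 49.4% from 34.1% for NBN against NSC, to 57.8% from 79.2% for late NSC and to 49.9% from 69.9% for late BP, and under median ratio scaling to 56.4% for late BP. Signs turned, in values that were not called unless named, for Rorb under quantile normalization in NBN against NSC (0.092) and in late BP (-0.20), and under median ratio scaling (-0.074) or without PN (-0.064) in late BP. Cux1 turned in mid NSC under median ratio scaling (-0.11). Up to E16.5, Pou3f3 turned in BP against NSC (-0.16), Cux2 (-0.30) and Pou3f1 (-0.12) in NBN against BP, and Cux1 (-0.004), Cux2 (-0.28), Pou3f3 (-0.47) and Rorb (0.825) in NBN against NSC, where Cux2 had been called. From E17.5, Cux1 turned in BP against NSC (0.052) and Pou3f2 in NBN against NSC (0.15). Mef2c turned in the NBN against BP change (0.057 with a pseudocount of 5 TPM, 0.11 under quantile normalization, 0.51 without PN) and in the BP against NSC change with the mid window widened to E12.5 through E16.5 (0.36), and Pou3f2 in the NBN against BP change without PN (-0.040). Leaving out E16.5 or E17.5 was chosen after seeing the data: Pou3f2 turned without E16.5 in NBN against NSC (0.075), and without E17.5 Cux2 turned in NBN against BP (-0.021) and Mef2c in late NBN (-0.33). Leaving out 1 library at a time gave -0.010 to 0.080 for Cux2 in NBN against BP, -0.22 to 0.13 for Mef2c in the NBN against BP change and -0.052 to 0.10 for Rorb in late BP, and 0.86 to 1.04 for Pou3f2 in late NBN, which passed the threshold without NBN E16.5 replicate 1 or NBN E17.5 replicate 2. The cause of these shifts was not tested. Libraries with the same replicate number deviated together, with r over 0.1, in 9 of 23 pairs of BP with NSC (median 0.044). They did so in 8 of 14 pairs of NBN with BP (0.124) and 1 of 14 of NBN with NSC (-0.039). For libraries with different numbers this held in 15 of 56 (-0.045), 6 of 28 (-0.033) and 10 of 35 pairs (0.023), in the same order. The numbers were not used as pairs, and whether NBN and BP libraries were paired is unknown. The replicate block gives a number the same term at all stages and cell types, so it does not model pairs within a stage. The fit with the replicate block gave 1259, 1461, 2961, 2964, 1855, 733, 357, 1512 and 211 genes called in the 9 comparisons, and among the 7 genes it changed the call of Pou3f2 in the BP against NSC change (0.99). Depth is unknown for TPM, so no limit of detection could be set.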
